A study of Mus musculus with 3 samples.

Results

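The tripartite motif (Trim) genes were measured as 44 gene names of the 29273 on the array, with 86 of its 41174 probes. They were taken as every non-control probe whose gene name in the array files begins with Trim and a number, and the family was picked because 1 probe of Trim12 is among those in a table of fold changes that the authors deposited. The cells were EpH4-PR, a line of mouse mammary epithelial cells (EpH4) stably transfected with the A form of the progesterone receptor (PR-A), from clones selected with G418 and grown in DMEM with 10% FBS to about 75% confluence. RNA of these cells was labelled with Cy5 on each of 3 whole-genome arrays, and Stratagene mouse standard RNA, a commercial reference, was labelled with Cy3 on the same arrays, with no dye swap. The values are therefore log2 ratios of the EpH4-PR to the reference signal. A dye effect of a probe that repeats on every array cannot be told apart from a difference in RNA. Arrays of cells with the empty vector (EpH4-EV) were not analysed here, so no ratio measures an effect of PR-A.

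Trim proteins share an N-terminal RING finger, B-box and coiled-coil arrangement, and many act as E3 ubiquitin ligases that attach ubiquitin to other proteins. They differ in the C-terminal part, which may be a PRY-SPRY, NHL, PHD-bromodomain or other domain and sets what each protein binds. Many members are induced by interferon and restrain viruses or tune innate immune signalling, and others regulate transcription, the cytoskeleton and epithelial keratins. The rodent genome carries a cluster of members related to antiviral Trim5, and in the RefSeq gene order on chromosome 7 the run Trim6, Trim34a, Trim5, Trim12a, Trim34b and Trim12c stands apart from the run Trim30b, Trim30c, Trim30a and Trim30d.

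The members were named by the array design, and 60 of the 86 probes carry a RefSeq mRNA accession, of which 55 matched a current symbol. Of these, 6 have a newer name: 1 Trim12 probe is now Trim12a, the 2 Trim30 probes are Trim30a and the 3 Trim34 probes are Trim34a. The second Trim12 probe carries a clone name, 2310043C01Rik, that RefSeq lists as an older name of Trim12a. Since these genes are close relatives on chromosome 7, cross-hybridization between relatives could not be told apart from signal of the named gene, and the probe sequences were not used here.

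The promoters of the measured cluster genes Trim12a, Trim34a and Trim30a and of Trim21 are shown because they carry the core of the interferon-stimulated response element, the DNA site through which interferon activates transcription. Windows of 300 bases, from 250 before to 50 after each gene's start in RefSeq (GRCm38.p6), were searched on both strands for GAAA, any 2 bases and GAAA again. The letters occurred in 3.44% of all 32851 windows and in 14.9% of the 67 windows of Trim genes. Among the genes measured here, 32 symbols had windows and 6 of these held the letters: Trim12a, Trim2, Trim21, Trim26, Trim30a and Trim34a. Trim6, the other measured gene of the cluster, was not among them. Windows of close relatives share sequence around the match, as in Trim5, Trim12a and Trim12c and in Trim30a and Trim30d, so they are not separate occurrences. A match is a description of these windows and no evidence of binding. In the lines that follow, which are written 5′ to 3′ on the gene's strand, the capitals mark the match, which reads TTTC, 2 bases and TTTC where it lies on the opposite strand; the run in Trim21 is a pair of overlapping matches. Trim30a has 2 windows with a match, and the one further downstream is shown. In every window shown the match begins after the annotated start, at an offset of 2 to 19 bases. This is not so for all windows of the measured genes. Matches began before the start in the other Trim30a window (-36) and in Trim26 (-160 and -154), and after it in Trim2 (28).
Trim12a, chr7:104315446-104315745, minus strand: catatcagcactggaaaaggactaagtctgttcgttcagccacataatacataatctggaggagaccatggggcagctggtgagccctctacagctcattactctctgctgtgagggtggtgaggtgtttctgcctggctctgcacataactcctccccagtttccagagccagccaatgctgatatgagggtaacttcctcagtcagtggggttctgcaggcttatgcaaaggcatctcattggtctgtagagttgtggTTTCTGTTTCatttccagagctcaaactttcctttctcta
Trim34a, chr7:104244207-104244506, plus strand: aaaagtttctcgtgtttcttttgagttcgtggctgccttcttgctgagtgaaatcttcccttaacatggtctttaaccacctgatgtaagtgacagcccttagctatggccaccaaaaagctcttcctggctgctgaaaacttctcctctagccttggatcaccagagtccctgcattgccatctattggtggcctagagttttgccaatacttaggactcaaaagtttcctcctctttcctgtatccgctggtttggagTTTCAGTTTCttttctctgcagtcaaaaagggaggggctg
Trim30a, chr7:104446076-104446375, minus strand: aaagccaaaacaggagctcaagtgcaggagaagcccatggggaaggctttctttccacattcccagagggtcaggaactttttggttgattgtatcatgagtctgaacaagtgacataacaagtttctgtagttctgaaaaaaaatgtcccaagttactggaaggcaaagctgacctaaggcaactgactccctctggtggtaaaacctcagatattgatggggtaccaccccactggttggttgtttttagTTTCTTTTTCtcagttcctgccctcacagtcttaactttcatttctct
Trim21, chr7:102565433-102565732, minus strand: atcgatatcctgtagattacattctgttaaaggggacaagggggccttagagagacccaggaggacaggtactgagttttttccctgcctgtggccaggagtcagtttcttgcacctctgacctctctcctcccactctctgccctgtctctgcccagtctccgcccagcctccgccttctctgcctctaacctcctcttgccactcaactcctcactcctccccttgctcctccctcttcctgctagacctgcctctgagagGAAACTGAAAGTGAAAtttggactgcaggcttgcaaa

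The arrays were alike. Across all probes the log2 ratios had a Pearson correlation of 0.923 to 0.952 between replicates, across probes that are not independent samples. The negative control spots had a 95th percentile of 62.9 to 87.4 in the EpH4-PR channel, where 0.637% to 5.10% of 314 such spots were flagged well above background by the scanner software. In the reference channel 46.5% to 53.5% of them were flagged, so the flag says little there. Their 95th percentile in that channel was 107 to 168. Pgr, the progesterone receptor gene, had 2 probes, each flagged in Cy5 on 1 array. Of 10 probes for epithelial genes 9 were called higher than in reference RNA (2.26% of all probes were), with Cdh1 (E-cadherin) at 4.29, and 1 was called lower, Krt19 at -2.62. Of 16 probes for mesenchymal genes 9 were called lower (3.83% of all probes were), with Vim at -6.51.

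Most Trim probes gave a signal in EpH4-PR RNA. In that channel 70 of 86 (81.4%) were well above background on all 3 arrays, against 68.9% of all probes, 8 were so on 1 or 2 arrays and 8 on none. By gene, 39 of 44 names had at least 1 probe well above background on all 3 arrays. The 5 names without such a probe were Trim15, Trim31, Trim42, Trim50 and Trim65. In the reference channel 26 of the 86 exceeded the 95th percentile of negative control spots on all 3 arrays (13669 of all 41174 probes did). The probes of Trim14 and Trim21 did so on no array, nor did A_52_P468821 (Trim44), A_52_P278853 (Trim34) and A_52_P580150 (Trim9). The same held for A_52_P267391 (Trim12), A_52_P199019 and A_52_P199023 (Trim6), A_51_P467051 (Trim7) and A_51_P417891 (Trim10). It also held for the probes of Trim30b and Trim60, which the array lists under older names. The ratios above 0 of all these probes stand against a reference signal no brighter than that percentile.

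Against the reference, few Trim probes stood far from 0. By limma with Benjamini-Hochberg adjustment over 41171 probes, 3 of the 86 were called higher, with a log2 ratio of 1 or more and an adjusted p below 0.05, while 2.26% of all probes were. Another 3 were called lower, at a log2 ratio of -1 or less, while 3.83% of all probes were. At the adjusted p alone, 29 were above 0 (25.7% of all probes were) and 14 were below 0 (24.6% of all probes were), and 43 did not pass. The median ratio was 0.04 over the Trim probes and -0.01 over all probes. The median SD between arrays was 0.0962 for Trim probes. These splits move with the scaling: median centring in place of loess gave 15 Trim probes called higher and 0 called lower (17.1% and 1.72% of all probes) and a Trim median of 0.24. A background offset of 0 gave 10 called higher and 6 called lower (7.59% and 9.48% of all probes), and the scanner software's own log ratio gave the same 2 counts (8.78% and 9.44% of all probes).

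**Figure D1:**
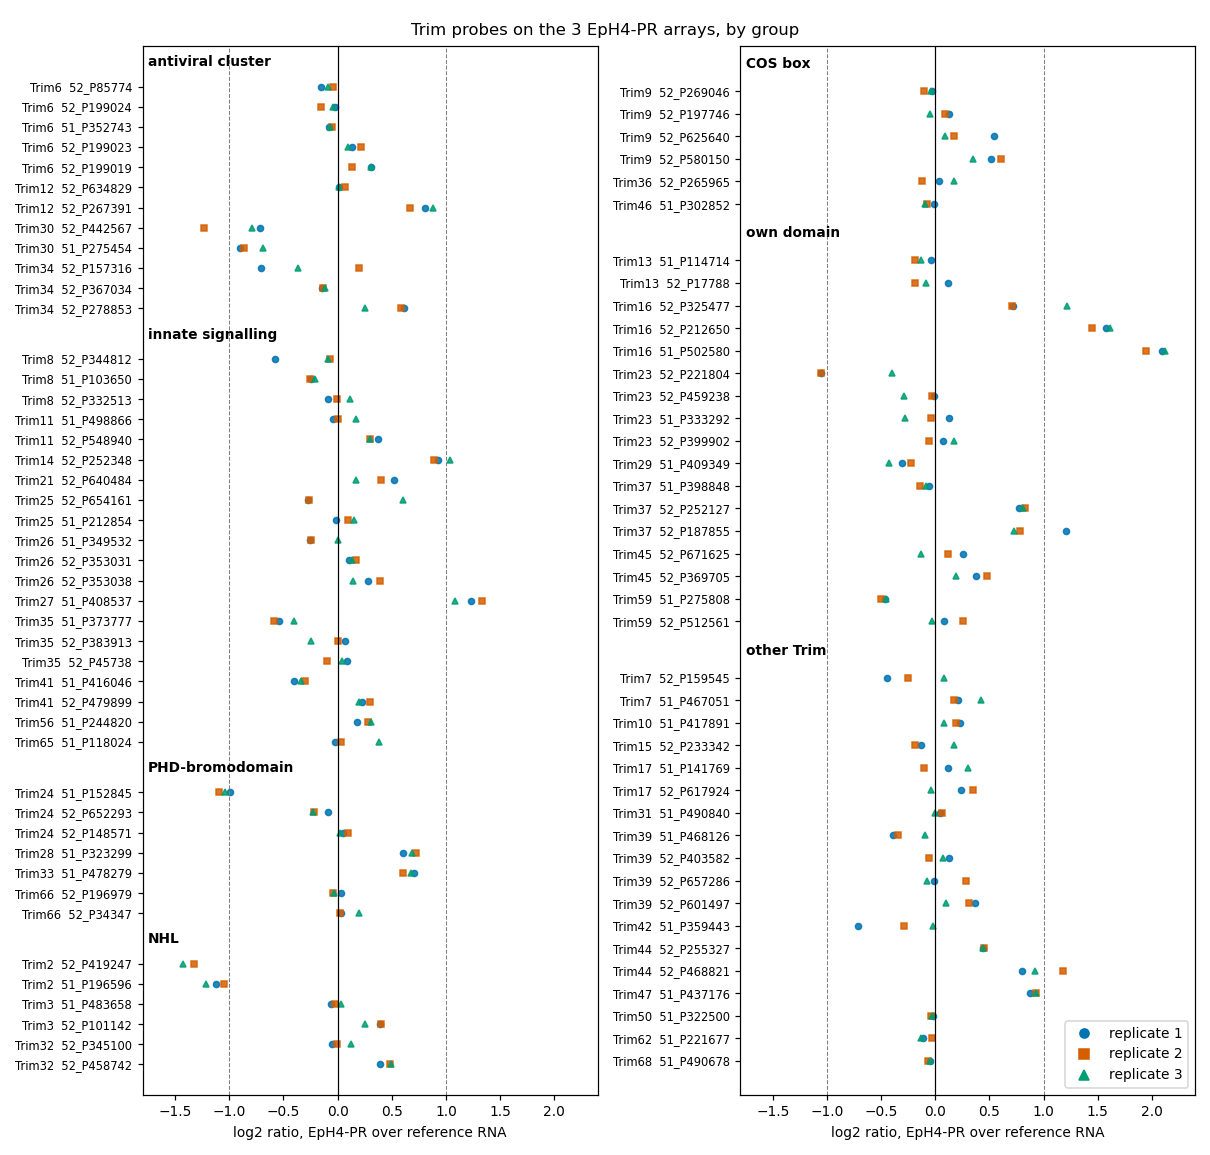
Log2 ratio of EpH4-PR to reference RNA for all 86 Trim probes on the 3 arrays, 1 row per probe, with 1 symbol per replicate and probes grouped by family branch; dashed lines mark -1 and 1. The 3 arrays lie close together for most probes, and only probes of Trim16 and Trim27 have a mean above 1.

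The antiviral cluster was split between its members. Trim12, a member found in rodents, had 1 probe (A_52_P267391) at 0.81 on replicate 1, 0.67 on replicate 2 and 0.88 on replicate 3, or 0.79 ± 0.11 as mean ± SD (n = 3). Since this probe led to the choice of the family, its values are given as a description with no test. All 3 arrays were above 0. The size depends on the background correction, since the mean was 1.82 with an offset of 0 and 2.23 by the scanner software. Its spot read 167, 166 and 159 in Cy5 and 125, 125 and 92.5 in Cy3. Negative control spots had medians of 119, 121 and 91.8 in Cy3, so the reference signal of this probe was near that of blank spots. The other Trim12 probe (A_52_P634829) read 0.01, 0.07 and 0.01, a mean of 0.03, so the 2 probes of this gene lay 0.76 log2 units apart. The first of these probes is the only Trim probe among the 587 in the authors' deposited table, where the authors' pooled intensities are 565 on the first side and 3251 on the second. The table does not name its sides and gives no spread. On the arrays the scanner software's processed signal of that probe was 605, 640 and 679 in EpH4-PR RNA and 193, 171 and 77.5 in the reference.

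Trim30, an interferon-induced member that restrains Toll-like receptor signalling, was lower on both of its probes. Probe A_52_P442567 read -0.72, -1.23 and -0.79, a mean of -0.91 ± 0.28 (SD, n = 3; limma adjusted p = 0.00194), and replicate 2 stood below the other two. Without replicate 1 it passed the threshold of -1, at -1.01. The second probe (A_51_P275454) read -0.90, -0.86 and -0.69 and its Cy5 spot was not well above background on any array, with spots of 81, 83 and 65 against 171, 167 and 124 in the reference. Its estimated level was 1.76-fold higher in reference RNA (limma adjusted p = 0.000305). The bound for dim probes left this estimate unchanged. Both probes stayed below 0 under median centring, at -0.80 and -0.91.

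The Trim34 probes did not move together. Probe A_52_P278853 was above 0 (0.61, 0.59 and 0.26, mean 0.49, limma adjusted p = 0.00722) and A_52_P367034 was slightly below 0 (-0.14, -0.14 and -0.12, mean -0.13, limma adjusted p = 0.047). The third probe (A_52_P157316) read -0.71, 0.20 and -0.37 and did not pass, with a limma adjusted p of 0.216. Of the 5 probes of Trim6, a ligase that makes free ubiquitin chains in the interferon pathway, 2 were above 0 with means of 0.15 and 0.25, and the other means ran from -0.09 to -0.07 without passing. The probe at 0.15 turned to -0.09 under median centring.

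Relatives of the cluster that the array lists under older names add to this. Trim30b (listed as A530023O14Rik) read 0.69, 0.67 and 0.45, a mean of 0.60 with a limma adjusted p of 0.0012, while Trim30d (LOC209387) had a mean of -0.23 with an adjusted p of 0.00843. Trim12c (9230105E10Rik) read -0.80, 0.14 and -0.22 and did not pass (limma adjusted p = 0.229). Neither the Trim12c probe nor the Trim34 probe at -0.71 had the same sign on all 3 arrays. The remaining members found under older names were Trim52, with 2 probes, and Trim54, Trim60, Trim61 and Trim69 with 1 each. Of these only Trim60 passed the adjusted p, at 0.29.

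Among the members that act in innate immune signalling, 8 of 20 probes were above 0 (25.7% of all probes were), 3 were below (24.6% of all probes) and 9 did not pass, and 1 was called higher (2.26% of all probes). That one was Trim27, a ligase first known as the Ret finger protein, at 1.23, 1.33 and 1.08 (mean 1.22 ± 0.13, SD, n = 3; limma adjusted p = 0.000107), a 2.32-fold ratio on its only probe. Trim14, an adaptor of the mitochondrial antiviral complex, lay at 0.93, 0.89 and 1.04, a mean of 0.95 ± 0.08 (SD, n = 3; limma adjusted p = 0.000113), just under the threshold. It was past the threshold with an offset of 0, at 1.62, and by the scanner software, at 2.00. Trim21, a cytosolic receptor that binds antibody-coated virus, read 0.52, 0.40 and 0.17, with a mean of 0.36 and a limma adjusted p of 0.0141. Trim56, which acts in double-stranded DNA and RNA sensing, had a mean of 0.25 (limma adjusted p = 0.00996). These 4 genes were above 0 on every array and stayed above 0 under median centring, at 2.09, 1.52, 0.34 and 0.95.

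Trim25, the ligase that ubiquitinates the RNA sensor RIG-I, did not pass on either probe. Its probe A_52_P654161 read -0.28, -0.26 and 0.61, so that replicate 3 alone was above 0, and the mean went from 0.02 to -0.27 without it. The brighter probe (A_51_P212854) read -0.01, 0.09 and 0.15. Trim26, which acts on interferon regulatory factor 3, had 2 of 3 probes above 0 at 0.14 and 0.27, and the third was at -0.17 with a limma adjusted p of 0.0984. Of 2 Trim11 probes 1 passed, at 0.32. Trim65 was not well above background in the reference on any array and was so in EpH4-PR RNA on 2, and it did not pass, with a limma adjusted p of 0.282.

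Trim8, Trim35 and Trim41 had probes below 0 whose direction hung on the scaling. Trim8, a regulator of cytokine and NF-kappaB signalling, had 1 of 3 probes below 0, at -0.24, which became 0.99 under median centring. Trim35, which acts on interferon regulatory factor 7, had 1 of 3 probes below 0, at -0.51, which became 0.47. Trim41 had 1 probe at -0.35 and the other at 0.24, and median centring gave 0.53 and 0.89. No direction is given for these genes.

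Other genes of the antiviral pathway had probes on both sides of 0. Of 33 probes for 19 genes of RNA sensing and interferon response, 8 were above 0 (25.7% of all probes were), 16 were below 0 (24.6% of all probes) and 9 did not pass. The median was -0.13 over the list and -0.01 over all probes, and it became 0.01 under median centring. There 5 of the 16 below 0 and 2 of the 8 above 0 changed sign. The 5 called lower (3.83% of all probes were) were Usp18 (-2.30), Isg15 (-1.45), Oas1a (-1.33), Rsad2 (-1.10) and Ifit3 (-1.08). These 5 probes stayed below 0 under median centring, at -1.68, -0.88, -0.88, -0.87 and -0.61. The 1 called higher was Ddx58, the gene of RIG-I, at 1.18, while its other probes lay at 0.48, 0.19 and 0.13. Rsad2 has 2 further probes, at -0.07 and -0.04, which did not pass. Of 11 probes for macrophage and lymphocyte genes 4 were called lower (3.83% of all probes were). The 11 had summed EpH4-PR spot intensities of 1368 to 1645 over the arrays. Their part in the ratios of the antiviral genes was not tested.

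**Figure D2:**
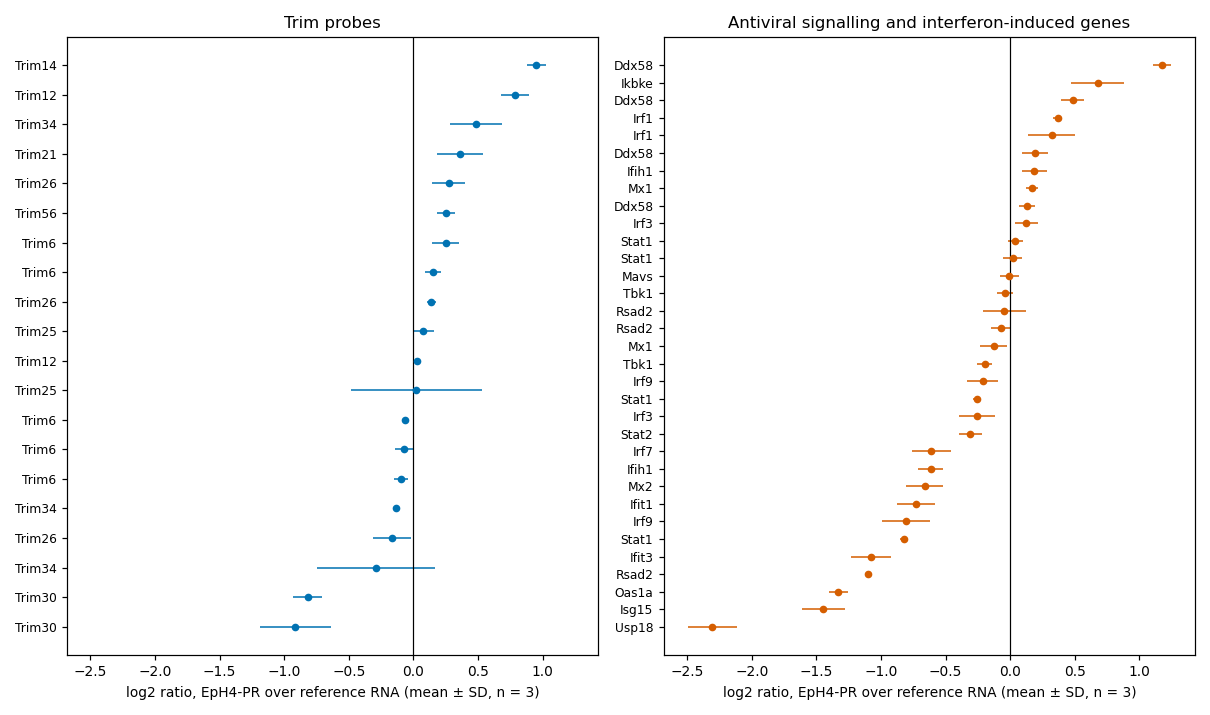
Mean log2 ratio with SD over 3 arrays for probes of the cluster genes and of Trim14, Trim21, Trim25, Trim26 and Trim56 (left) and for 33 probes of antiviral signalling and interferon-induced genes (right), each panel ordered by ratio. Trim14 at 0.95 is highest on the left and Trim30 at -0.91 lowest, and Usp18 at -2.30 is lowest on the right.

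The transcriptional co-regulators with a PHD finger and bromodomain diverged. Trim28 (KAP1), which recruits silencing complexes to zinc finger proteins, read 0.60, 0.72 and 0.68, a mean of 0.67 ± 0.06 (SD, n = 3; limma adjusted p = 0.00028). Trim33 (TIF1-gamma), a regulator of Smad4 and of the Tgf-beta and Bmp response, read 0.71, 0.61 and 0.67, a mean of 0.66 ± 0.05 (SD, n = 3; limma adjusted p = 0.000261). Both were above 0 on every array and higher still under median centring, at 1.90 and 1.92. Trim24 (TIF1-alpha), a cofactor of nuclear receptors, was called lower on probe A_51_P152845, at -0.99, -1.09 and -1.04 (mean -1.04 ± 0.05, SD, n = 3; limma adjusted p = 6.83e-05), but under median centring the same probe gave 0.17. Its second probe had a mean of -0.18 with a limma adjusted p of 0.0358, and the third was not well above background in either channel. The Trim66 probes lay at -0.01 and 0.08 and did not pass.

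Genes of the heterochromatin complexes that Trim28 works with were measured as well. Of 10 probes for Cbx1, Cbx3, Cbx5 and Setdb1, 7 were above 0 (25.7% of all probes were) and 3 did not pass, with a median of 0.51 over the list and -0.01 over all probes. Those called higher (2.26% of all probes were) were Cbx1 at 1.16 and 1 of 3 Cbx3 probes at 1.05, both genes of heterochromatin protein 1. The 2 Setdb1 probes, for the histone methyltransferase of the complex, lay at 0.03 and 0.19 and did not pass.

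Among the NHL-domain members Trim2, a neuronal ubiquitin ligase, was called lower on both probes. Probe A_51_P196596 read -1.12, -1.05 and -1.22, a mean of -1.13 ± 0.08 (SD, n = 3; limma adjusted p = 7.57e-05), a 2.19-fold lower level. Probe A_52_P419247 rests on 2 arrays, at -1.32 and -1.42, because the scanner software marked its spot on replicate 1 as an outlier: the spot read 3351 there against 151 and 140 on the others. This second call is lost with the outlier spot kept, at -0.74 with a limma adjusted p of 0.188, and under the methods' test per probe, at an adjusted p of 0.0703 in place of limma's 0.000249. Under median centring the probes gave -0.62 and -0.74, below 0 but short of -1. Trim3 and Trim32 each had 1 of 2 probes above 0, at 0.35 and 0.46, and stayed above 0 under median centring.

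Of the members with a COS box, which bind microtubules, Trim9 had 1 of 4 probes above 0, at 0.49 (limma adjusted p = 0.00248), and 2 of its probes were not well above background in EpH4-PR RNA on any array. Trim36 and Trim46 had 1 probe each and did not pass. Of the striated muscle members only Trim54 was found, under its older name Rnf30, at 0.03, -0.09 and 0.32. Members under other names were sought by RefSeq accession, which did not match every probe, so others may have been missed. Of 19 probes for other striated muscle genes, 11 were well above background in EpH4-PR RNA on all 3 arrays (68.9% of all probes were). Only Acta1 was called at the threshold of 1, at -2.09 (3.83% of all probes were called lower).

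Of the members with a domain of their own, Trim16 stood highest of the family. Trim16, which lacks a RING finger and is expressed in keratinocytes, had 3 probes, all above 0. Probe A_51_P502580 read 2.09, 1.94 and 2.12, a mean of 2.05 ± 0.09 (SD, n = 3; limma adjusted p = 2.4e-05), a 4.15-fold ratio. Probe A_52_P212650 read 1.58, 1.45 and 1.61, a mean of 1.55 ± 0.09 (SD, n = 3; limma adjusted p = 3.72e-05). Its reference signal exceeded the 95th percentile of negative control spots on only 1 array. The third, A_52_P325477, read 0.72, 0.71 and 1.22, a mean of 0.88 that did not reach the threshold of 1, with replicate 3 above the other two. Under median centring the 3 probes gave 3.27, 2.38 and 1.68.

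Trim37, a ligase of centrosomes and peroxisomes, had 2 probes above 0, at 0.80 and 0.90, and another at -0.10 (limma adjusted p = 0.128). Trim23, which carries an ARF GTPase domain, had 1 of 4 probes below 0 (A_52_P221804: -1.05, -1.06 and -0.40, mean -0.84, limma adjusted p = 0.00723). Replicate 3 of this probe stood above the other two, and without replicate 3 it was called lower, at -1.05. Trim29, known for its expression in basal and squamous epithelia, had its single probe at -0.31, -0.23 and -0.42, a mean of -0.32 (limma adjusted p = 0.00678). Trim59 had 1 probe at -0.47 and the other at 0.10, but median centring moved them to 0.71 and 0.84. Trim45 had 1 of 2 probes above 0, at 0.35, and neither Trim13 probe passed.

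Among the remaining members Trim47 and Trim44 were close to the threshold. Trim47 read 0.88, 0.93 and 0.93, a mean of 0.91 ± 0.03 (SD, n = 3; limma adjusted p = 8.2e-05). Trim44, which lacks a RING finger, had probes at 0.97 and 0.45. The former read 0.80, 1.18 and 0.92 and passed 1 without replicate 1, at 1.05. The 6 probes of this group above 0 include Trim10 at 0.16 and 1 of 2 probes of Trim7 at 0.27.

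The values next to the threshold show how little separates a called probe from its neighbours. On the high side Trim27 was the last inside at 1.22 and Trim44 the first outside at 0.97, followed by Trim14 at 0.95 and Trim47 at 0.91. On the low side Trim24 was the last inside at -1.04, and Trim30 at -0.91 and Trim23 at -0.84 were the first outside. With a background offset of 0 several of these and other probes were past 1 in size: Trim44 at 1.94, Trim9 at 1.91, 1 Trim37 probe at 1.56, the third Trim16 probe at 1.25, 1 Trim34 probe at 1.10, both Trim30 probes at -1.74 and -1.95, and Trim23 at -1.34.

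Several probes of a gene often disagreed. Of the 26 names with more than 1 probe, 12 had means more than 0.5 log2 units apart, and the median distance was 0.46. The probes of 3 genes, Trim34, Trim39 and Trim41, lay on both sides of 0 with each at an adjusted p under 0.05. For Trim39, a ligase of the cell cycle and apoptosis, these were -0.28 and 0.26. Trim24 spanned 1.10, Trim37 spanned 1.00 and Trim16 spanned 1.17 units. The upper end of the Trim24 span is a probe (A_52_P148571) that was not well above background in either channel on any array. Spans of Trim23 and Trim9, which are among the 12, also end at probes not well above background in EpH4-PR RNA on any array. These spans therefore rest in part on undetected probes. Whether the probes bind different transcript ends or isoforms was not tested.

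**Figure D3:**
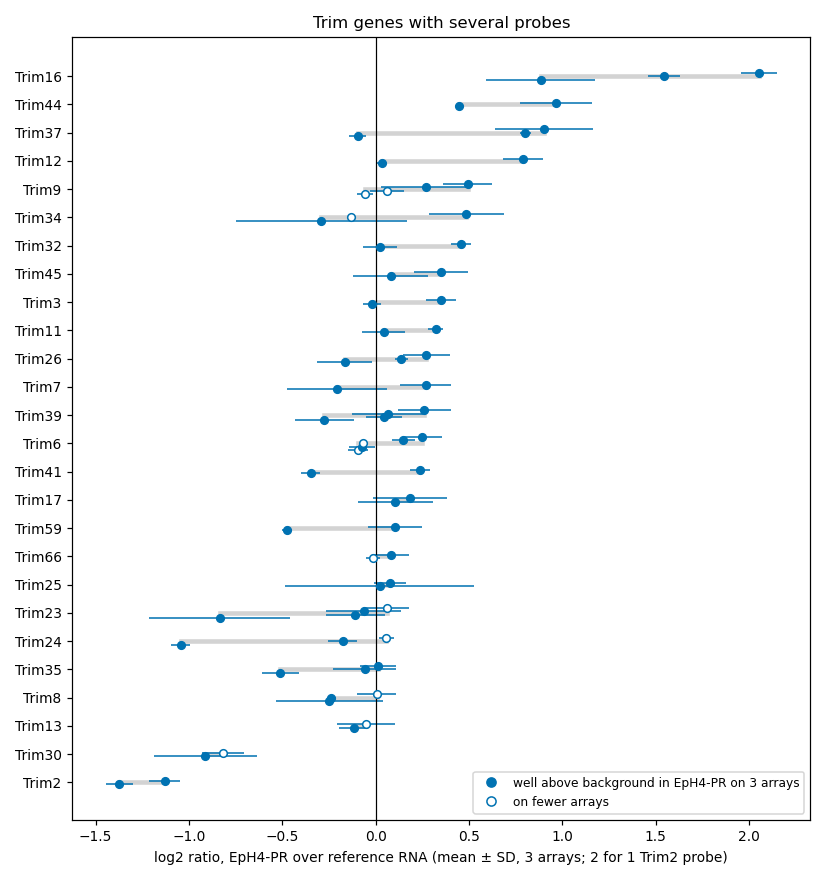
Mean log2 ratio with SD for each probe of the 26 Trim genes that have more than 1 probe, ordered by the highest probe; open points were well above background in EpH4-PR RNA on fewer than 3 arrays. Trim16, Trim24 and Trim37 span about 1 unit or more between probes, while both probes of Trim2 and Trim30 lie close together below 0. The highest Trim24 point is an open one.

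The dependence on scaling was largest for bright spots. Of the 43 probes that passed the adjusted p, 7 had a ratio of the opposite sign under median centring: 1 above 0 and 6 below. The latter were probes of Trim8, Trim24, Trim35, Trim39, Trim41 and Trim59, and the former was a Trim6 probe. Trim24, for example, had spots of 865, 749 and 871 in Cy5 and 704, 675 and 709 in Cy3.

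**Figure D4:**
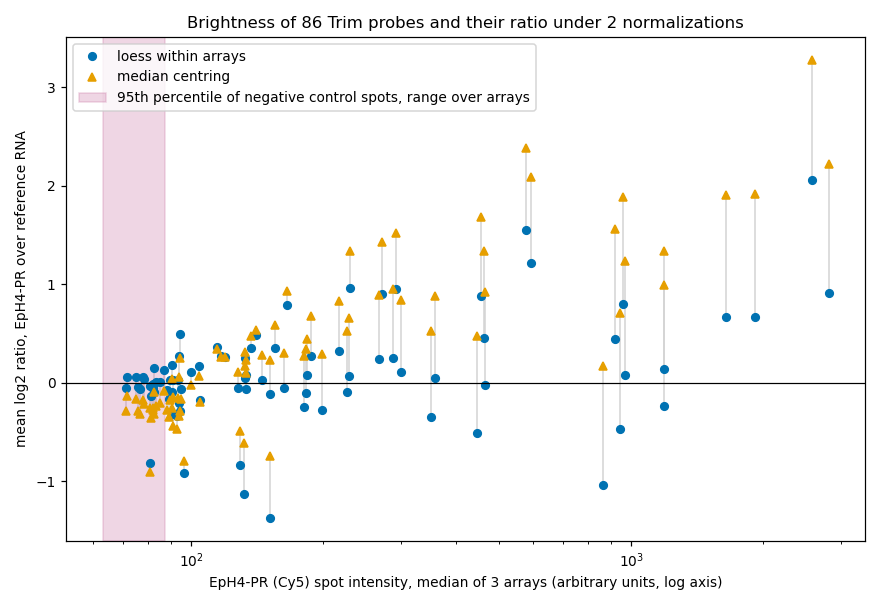
Mean log2 ratio of each Trim probe after loess (circles) and after median centring (triangles), joined by a line, against the median EpH4-PR spot intensity on a log axis; the band is the 95th percentile of negative control spots over the 3 arrays (62.9 to 87.4). Bright spots move up by about 1 unit under median centring and dim spots move down slightly.

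Relatives of the family with other names were mostly near 0. Of 16 probes for 10 genes, 3 were above 0 (25.7% of all probes were), 2 were below 0 (24.6% of all probes) and 11 did not pass. The single one called was Bspry, a B-box and SPRY protein, at 2.36, 2.23 and 2.22 (mean 2.27 ± 0.08, SD, n = 3, limma adjusted p = 1.83e-05). It was called higher, as were 2.26% of all probes, but its reference signal exceeded the 95th percentile of negative control spots on only 1 array. Pml, the organizer of nuclear bodies, lay at 0.01 and 0.12 on its 2 probes and did not pass. Of 14 probes for ubiquitin-conjugating enzymes, which hand ubiquitin to Trim ligases, 6 were above 0 and 3 below (25.7% and 24.6% of all probes). Their means ran from -0.54 to 0.59.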

How the data were processed

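EpH4-PR RNA (Cy5) and reference RNA (Cy3) were measured on 3 two-colour Agilent arrays, taken as 3 replicates as the labels number them; whether these are separate cultures is not stated, so p-values measure only the spread between arrays. The authors deposited the output of Agilent Feature Extraction 8.1.1.1, in which each spot has a mean and median intensity and a background intensity per channel, a processed intensity, a log10 ratio and other values such as flags. The authors also deposited a table of other values, pooled intensities of 2 unnamed sides, with fold changes, ratios and p-values of their own comparison, of which the fold changes, ratios and p-values were not used. The array annotation names no genome build.

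Mean intensity was corrected for local background with normexp (offset 50) and normalized within arrays by loess, with control and outlier spots at weight 0. Outlier spots (150, 18 and 3 on replicates 1, 2 and 3) and control spots were then left out, and spots of a probe were averaged. A probe with values on at least 2 arrays was tested against 0 with lmFit and eBayes in limma 3.58.1 (R 4.3.3), adjusted over 41171 probes. Probes of a gene were kept apart. A dim probe's bound follows the lowest signal among probes well above background, which was no higher than the signal of the dim Trim30 probe. Alternatives were offset 0, the log10 ratio of the scanner software, median centring, scaling between arrays, median spot intensity and outlier spots kept. Further alternatives were a filter on dim probes, an ordinary t-test per probe against 0, an intensity trend in eBayes and each array left out. The steps were tested on simulated data. Precision is limited by the number of arrays.

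The probes named were those of Trim12, Trim30, Trim34 and Trim6, up to 6 called probes in each direction, all members of the structural and signalling groups described, genes with probes in opposite directions, and family relatives; partner genes were named where called, and Setdb1, Cdh1, Vim, Krt19, Trim44, Trim47, Trim10, Trim7 and the members under older names were added after their values were seen. Members and lists were chosen with earlier results of these data known. Tables were handled in Python 3.11.15.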

Additional observations from a re-analysis of the deposited data

How the results depend on the processing

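The counts of called Trim probes moved with the processing. With normexp offset 0, 10 probes were called higher and 6 lower, and with the log ratio of the scanner software the counts were also 10 and 6, while median centring gave 15 and 0. An ordinary t-test per probe against 0, after Benjamini-Hochberg, gave 3 and 2. Trim2 probe A_52_P419247 lost its call there (adjusted p 0.0703) and with outlier spots kept (-0.74). Leaving out 1 array gave 3 to 4 higher, 2 to 4 lower and 71 to 73 probes well above background in EpH4-PR RNA. Without replicate 1 Trim44 (1.05) and Trim30 (-1.01) were called in addition, without replicate 3 Trim23 (-1.05) was, and without replicate 2 or 3 the Trim2 probe with an outlier spot had a single array and was not tested. Median centring reversed 19 of the 77 probe values named. These became 0.92 for Trim3, -0.091 for Trim6, 0.27, 0.99 and -0.24 for Trim8, -0.15 for Trim12, 0.23 for Trim13, 0.34 and -0.18 for Trim23, 0.17 and -0.17 for Trim24, -0.16 for Trim32, 0.47 and -0.21 for Trim35, -0.17 for Trim36, 0.53 for Trim37, 0.29 for Trim39, 0.53 for Trim41 and 0.71 for Trim59; the cause was not tested. Of the 19 probes reversed by median centring, 1 above 0 and 6 below 0 had passed the adjusted p, and the others had not. Without replicate 3 a Trim25 probe reversed to -0.27. Of the 43 named probes at an adjusted p under 0.05, 15 kept their sign and stayed under 0.05 in every alternative run. No paired analysis was possible because the arrays form a single group. Dim spots limit the ratios: 16 Trim probes were not well above background in EpH4-PR RNA on all 3 arrays. The reference channel limits them further, since only 26 Trim probes exceeded the 95th percentile of its negative control spots on all 3 arrays.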
